A study of Macaca fascicularis with 2 samples.

Results

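The transcription factor genes that mark the supporting lineage of the gonad were followed through single cells of the fetal monkey ovary. The 10 genes are WT1, GATA4, LHX9, EMX2, NR5A1, CBX2, FOXL2, NR0B1, IRX3 and IRX5. They were chosen by name and all 10 are among the 18446 genes of the count table. The cells came from whole ovaries of 1 Macaca fascicularis fetus at embryonic day 84 (E84) and 1 at embryonic day 116 (E116), both female, with the ovaries of a fetus dissociated together for 1 droplet-based library. The table does not tie a cell to a fetus, so the 2 libraries were read as 1 pooled sample and E84 was not compared with E116. With no replicate of either stage, no test and no p-value are given, and every interval covers counting error only.

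The gonad arises from the coelomic epithelium, and its supporting cells become granulosa cells in the ovary and Sertoli cells in the testis. WT1, GATA4, LHX9, EMX2, NR5A1 and CBX2 are needed for the early gonad of the mouse before the sexes diverge. WT1 is a zinc finger protein, GATA4 a GATA factor, LHX9 and EMX2 are homeodomain proteins, NR5A1 is a nuclear receptor that drives steroidogenic genes, and CBX2 is a chromatin reader of Polycomb complex PRC1. FOXL2, a forkhead factor, maintains the granulosa fate, and NR0B1 is an orphan nuclear receptor that antagonises NR5A1. IRX3 and IRX5 are neighbouring Iroquois homeobox genes that act together in mouse granulosa cells, where their loss disturbs contact with the germ cell.

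The table holds unique molecular identifiers (UMIs), the counted RNA molecules, for 20967 cells. The 16292 cells with 200 to 3000 detected genes were retained and grouped into 19 clusters. The 10 factors were kept out of the genes used for clustering and out of the marker genes used to name the clusters, and a name ends in "-like" because it rests on markers alone. The classes used here were 5347 granulosa-like, 674 ovarian surface epithelium-like, 4002 stroma-like, 4288 germ cell-like, 123 pericyte-like, 342 endothelial-like and 734 erythroid-like cells. Barcodes ended in 1 or 2, with 8716 and 7576 retained cells of median 2470 and 2964 UMIs, and 27 barcodes of the whole table occurred with both endings. The endings were used as groups of cells with no stage assigned. Library, fetus and stage cannot be told apart in a difference between them. A level below is the summed UMIs of a group scaled to a total of 1000000 (CPM) with an exact 95% Poisson interval. Cells of 2 classes differ 2-fold here when their CPM do after 10 CPM are added to each.

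Erythroid-like cells, which should lack these factors, were read as a measure of free RNA. Their median was 299 genes at 4053 UMIs per cell, with HBB the leading gene. Abundant RNA of their own lowers the share of their total that free RNA can take. Whether a level above theirs in another class exceeds free RNA was therefore not tested. Erythroid-like cells held 10.6 CPM of WT1, 10.1 CPM of EMX2, 7.35 CPM of IRX3 and 5.17 CPM of CBX2, and at most 2.72 CPM of any other factor. After each cell was thinned to 1000 UMIs, 5.76% of 642 erythroid-like cells (95% binomial interval 4.09 to 7.86) held a UMI of any of the 10 genes. The share was 50.4% of 4301 granulosa-like cells and 56.7% of 638 surface epithelium-like cells. It was 19.8% of 3767 stroma-like, 18.3% of 289 endothelial-like and 11.03% of 2820 germ cell-like cells. The factors were therefore most widely detected in the granulosa-like and surface epithelium-like cells, and all other classes lay lower with intervals that did not reach them.

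**Figure D1:**
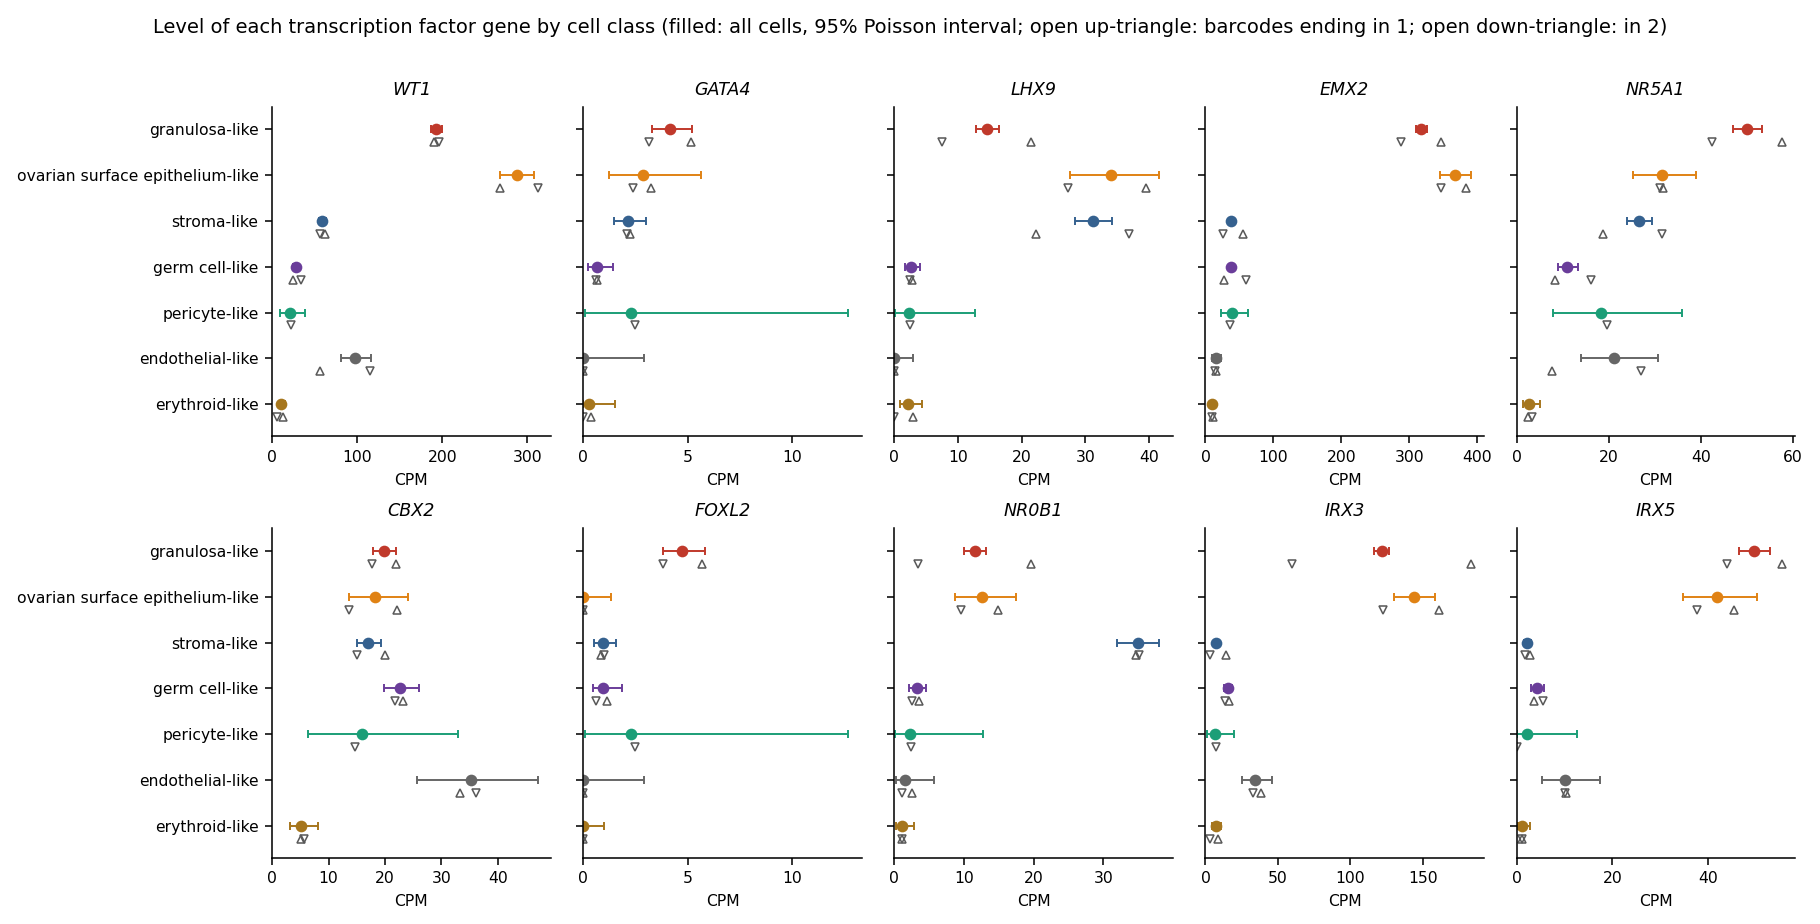
Level of each factor gene in 7 cell classes, in CPM on a linear axis that differs between panels. Filled points are all cells of a class with the exact 95% Poisson interval, and open triangles are the cells of each barcode ending where it has at least 50 cells. WT1, EMX2, IRX3 and IRX5 stood highest in the granulosa-like and surface epithelium-like rows, NR0B1 in the stroma-like row.

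Granulosa-like cells were set against stroma-like cells to see which factors separate the supporting from the interstitial compartment. WT1, EMX2, IRX3 and IRX5 were at least 2-fold higher in granulosa-like cells, which makes 4 of 10 genes. NR0B1 was at least 2-fold lower. Of 12189 genes with at least 100 UMIs, 4.32% were called higher and 3.84% lower in the same comparison. The median log2 ratio with 10 CPM added was 0.57 over the 10 genes and 0.06 over all genes tested.

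EMX2 reached 317.6 CPM (309.5 to 325.8) in granulosa-like cells, against 37.0 CPM (34.0 to 40.2) in stroma-like cells. The ratio was 8.58-fold, a log2 ratio of 3.10 (2.98 to 3.23). By barcode ending EMX2 held 346 and 288 CPM in granulosa-like and 54.9 and 25.5 CPM in stroma-like cells, so the classes were apart in both. WT1 was at 193 CPM (187 to 199.7) in granulosa-like and at 58.8 CPM (55.0 to 62.8) in stroma-like cells, 3.29-fold apart. Its levels in the endings were nearly the same, with 191 and 196 CPM in granulosa-like and 62.5 and 56.4 CPM in stroma-like cells. WT1 thus remained well above the erythroid-like level in stroma-like cells, where 6.08% of thinned cells (5.34 to 6.89) held a UMI of it against 1.40% (0.64 to 2.64) of erythroid-like cells.

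The Iroquois genes were higher in granulosa-like cells too. With 10 CPM added the log2 ratio was 2.91 for IRX3 and 2.30 for IRX5, beside 2.80 for EMX2. IRX3 stood at 122 CPM (117 to 127) in granulosa-like cells and at 7.47 CPM (6.15 to 8.98) in stroma-like cells, the latter with an interval that overlapped the 7.35 CPM (4.84 to 10.7) of erythroid-like cells. IRX5 stood at 49.7 CPM (46.5 to 53.0) against 2.13 CPM (1.46 to 3.01), a ratio of 23.3-fold and a log2 ratio of 4.54 (4.03 to 5.10). The 2 genes did not behave alike across the endings. In granulosa-like cells IRX3 was at 183 and 59.7 CPM for endings 1 and 2, while IRX5 was at 55.3 and 44.0 CPM. In each ending both genes remained at least 2-fold above the stroma-like cells.

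LHX9 and NR0B1 ran the other way. NR0B1 was at 34.9 CPM (32.0 to 38.1) in stroma-like and at 11.6 CPM (10.1 to 13.2) in granulosa-like cells, a log2 ratio of granulosa-like to stroma-like cells of -1.60 (-1.83 to -1.36). Its stroma-like level was 34.8 and 35.1 CPM in the endings, but its granulosa-like level was 19.7 and 3.36 CPM. With 10 CPM added the log2 ratio was -0.59 in barcodes ending in 1 and -1.75 in barcodes ending in 2, so only the latter met the 2-fold call. LHX9 was at 31.2 CPM (28.4 to 34.2) in stroma-like and at 14.5 CPM (12.8 to 16.4) in granulosa-like cells. In barcodes ending in 1 the LHX9 levels were 21.5 and 22.3 CPM in granulosa-like and stroma-like cells, and in barcodes ending in 2 they were 7.49 and 36.9 CPM. The lower granulosa-like level of LHX9 therefore rested on barcodes ending in 2. Stroma-like cells of the endings came mainly from different clusters, with LHX9 at 36.6 CPM in cluster 0 (2132 cells, led by GBP1 and SPON2, ending in 2) and 22.7 CPM in cluster 2 (1765 cells, led by POSTN and RSPO3, ending in 1). NR0B1 was at 35.1 and 36.4 CPM in the same clusters.

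NR5A1 was found in both compartments. It was at 50.0 CPM (46.9 to 53.4) in granulosa-like and 26.6 CPM (24.1 to 29.3) in stroma-like cells, 1.88-fold apart. The contrast was 57.6 against 18.7 CPM in barcodes ending in 1, which met the 2-fold call, and 42.4 against 31.7 CPM in barcodes ending in 2, which did not. CBX2 was near even, at 19.9 CPM (17.9 to 22.0) in granulosa-like and 17.0 CPM (15.0 to 19.2) in stroma-like cells, and its interval for the log2 ratio, -0.01 to 0.46, held 0.

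FOXL2 and GATA4 were barely captured. All retained cells together held 112 UMIs of FOXL2 and 125 of GATA4, in 0.66% and 0.75% of cells. Of the FOXL2 UMIs, 88 lay in granulosa-like, 14 in stroma-like and 9 in germ cell-like cells, giving 4.75 CPM (3.81 to 5.85), 0.93 CPM (0.51 to 1.57) and 0.96 CPM (0.44 to 1.83). The log2 ratio of FOXL2 in granulosa-like to stroma-like cells was 2.35 (1.53 to 3.28), and the gene missed the 2-fold call only because 10 CPM were added to levels below that. No UMI of FOXL2 was found in surface epithelium-like, endothelial-like or erythroid-like cells, where a count of 0 allows up to 1.08, 2.35 and 0.82 CPM. GATA4 was at 4.16 CPM (3.28 to 5.20) in granulosa-like, 2.87 CPM (1.24 to 5.65) in surface epithelium-like and 2.13 CPM (1.46 to 3.01) in stroma-like cells. At these counts the granulosa-like and surface epithelium-like levels of GATA4 could not be told apart.

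**Figure D2:**
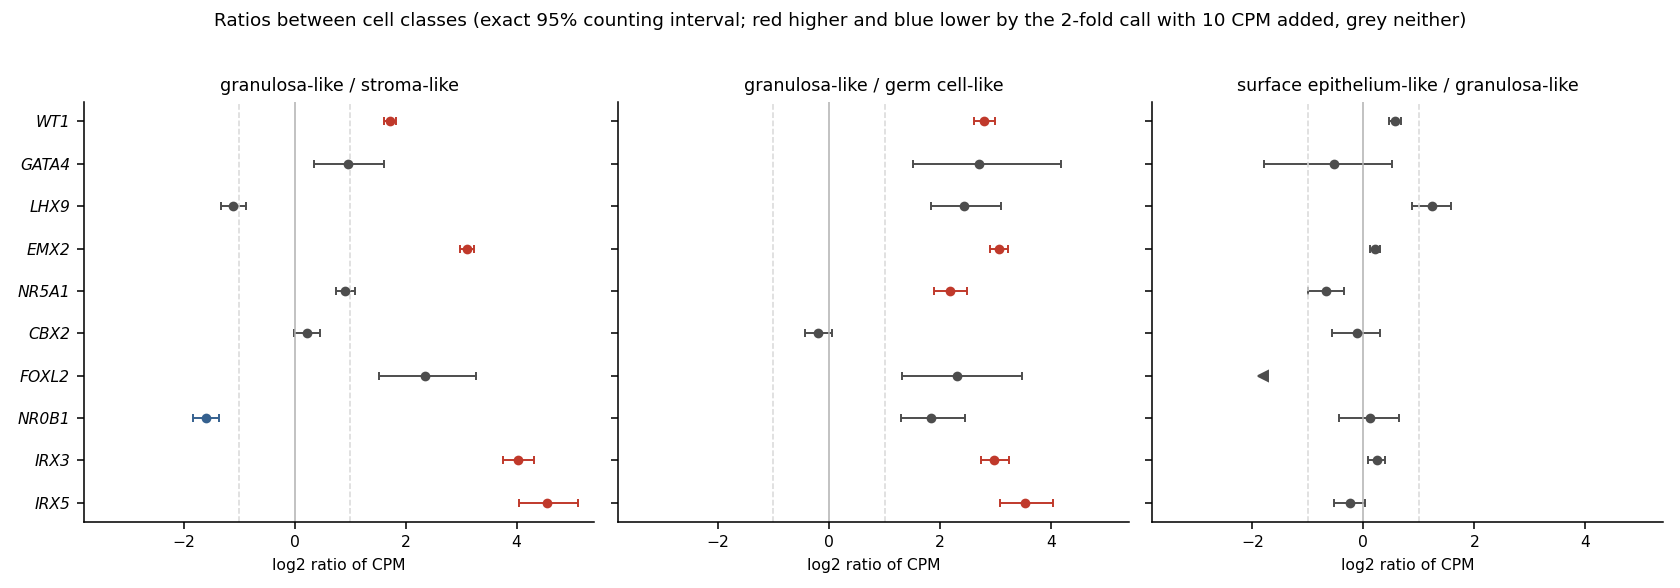
Log2 ratio of CPM, with nothing added, between 3 pairs of cell classes for each factor gene, with the exact 95% counting interval. Red points met the 2-fold call with 10 CPM added as higher and blue points as lower, grey points met neither, and the arrow for FOXL2 is the upper bound of a ratio to 0 UMIs. In the first panel IRX5 lay furthest to the right and NR0B1 furthest to the left.

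Surface epithelium-like cells were then set against granulosa-like cells. None of the 10 genes met the 2-fold call in either direction, beside 2.38% of all genes tested called higher and 2.01% lower in the surface epithelium-like class, so a count of 0 among 10 genes is no result about them. FOXL2 had no UMI in surface epithelium-like cells against 88 in granulosa-like cells, and its log2 ratio was at most -1.81. WT1 was at 288 CPM (268 to 308) against 193 CPM, 1.49-fold higher, and was higher in both endings, with 268 and 312 CPM. EMX2 was at 367 CPM (345 to 391), 1.16-fold higher, and IRX3 at 144 CPM (130 to 159), 1.18-fold higher. IRX3 was lower than in granulosa-like cells in barcodes ending in 1, with 162 against 183 CPM, and higher in barcodes ending in 2, with 122 against 59.7 CPM. IRX5 at 41.9 CPM (34.7 to 50.3), CBX2 at 18.3 CPM and NR0B1 at 12.5 CPM did not differ beyond counting error from the granulosa-like levels over the pooled cells. For NR0B1 the endings went opposite ways, with a log2 ratio to granulosa-like cells of -0.40 in barcodes ending in 1 and 1.51 in barcodes ending in 2. NR5A1 was lower, at 31.5 CPM (25.3 to 38.9). LHX9 had the widest difference of the genes that were present, 34.0 CPM (27.5 to 41.6) against 14.5 CPM. Its ratio was 2.34-fold, and 1.09 on the log2 scale with 10 CPM added in barcodes ending in 2, where it met the call.

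For each gene the order of the classes followed from these values. Over the pooled cells WT1, EMX2 and IRX3 fell from surface epithelium-like to granulosa-like cells and then to every other class. The stroma-like, germ cell-like and pericyte-like levels of EMX2 overlapped at 37.0, 38.0 and 38.7 CPM. In barcodes ending in 1 the first step was reversed for IRX3, with a log2 ratio of surface epithelium-like to granulosa-like cells of -0.18. Single granulosa-like clusters, given below, reached 388 CPM of EMX2 and 184 CPM of IRX3, against 367 and 144 CPM in surface epithelium-like cells. IRX5 and NR5A1 fell from granulosa-like to surface epithelium-like cells, with overlapping intervals for IRX5, and the intervals of NR5A1 in surface epithelium-like, stroma-like, pericyte-like and endothelial-like cells overlapped. LHX9 was highest in surface epithelium-like and stroma-like cells, whose intervals overlapped, and NR0B1 in stroma-like cells. The order of CBX2 was led by endothelial-like cells, whose interval met that of germ cell-like cells.

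Endothelial-like cells held several of the factors above the erythroid-like level. WT1 stood at 97.1 CPM (80.8 to 115.8), IRX3 at 34.5 CPM (25.0 to 46.3), CBX2 at 35.3 CPM (25.7 to 47.2) and NR5A1 at 21.2 CPM (13.9 to 30.8). EMX2 stood at 14.9 CPM (8.96 to 23.2), whose interval overlapped the 10.1 CPM (7.09 to 13.9) of erythroid-like cells. The summed counts were 124 UMIs of WT1 and 19 of EMX2 in endothelial-like cells, 39 and 37 in erythroid-like cells, and 3580 and 5883 in granulosa-like cells. Stroma-like cells held 882 UMIs of WT1 and 555 of EMX2. The source of the WT1 RNA in endothelial-like cells was not tested. WT1 was at 56.4 and 115.1 CPM in the endings, above the erythroid-like 12.2 and 5.68 CPM in each, and NR5A1 at 7.69 and 27.1 CPM. The 123 pericyte-like cells held 9 UMIs of WT1 and 3 of IRX3, too few to place them.

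The second comparison asked how far germ cell-like cells share the factors. WT1, NR5A1, EMX2, IRX3 and IRX5 were at least 2-fold higher in granulosa-like cells, 5 of 10 genes, beside 10% of all genes tested, and none was 2-fold lower, beside 10.6%. The median log2 ratio was 1.23 over the 10 genes and 0 over all genes tested. The exception was CBX2, which stood at 22.7 CPM (19.8 to 26.0) in germ cell-like and 19.9 CPM in granulosa-like cells, with a log2 ratio of -0.19 (-0.44 to 0.06). The erythroid-like level of CBX2 was 5.17 CPM (3.11 to 8.08), so the gene stood above that level in germ cell-like cells too.

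Within the germ line the levels of CBX2 and IRX3 were higher in some of the earlier stages. CBX2 was at 32.7 CPM (19.4 to 51.7) in 81 mitotic-like cells and 28.2 CPM (23.0 to 34.1) in 1525 cells like those responding to retinoic acid. It was at 15.8 CPM (11.5 to 21.2) in 1054 meiotic-like and 16.4 CPM (10.1 to 25.0) in 574 oogenesis-like cells, and the interval of the mitotic-like cells overlapped both. In the endings the retinoic acid-responsive level was 26.0 and 33.0 CPM and the meiotic level 16.4 and 13.7 CPM. The order of the values was the same in each, but intervals within an ending were not compared. Of the 655845 UMIs of meiotic-like cells ending in 2, 494052 came from germ sub-cluster 7, where 40.7% of UMIs were mitochondrial. The oogenesis-like level of CBX2 was 32.1 and 13.1 CPM in the endings and thus had no common order. IRX3 was at 17.9 CPM (13.8 to 22.7) in retinoic acid-responsive cells and 3.23 CPM (1.48 to 6.13) in meiotic cells. The retinoic acid-responsive level of IRX3 was 24.1 CPM for ending 1 and 3.57 CPM for ending 2, so its order rested on the first ending. EMX2, WT1 and NR5A1 stayed at or below 34.3, 22.2 and 15.6 CPM in all 4 stages.

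Germ cell-like sub-clusters that could not be named by stage raised the germ cell totals. A sub-cluster that best matched the markers of a somatic class was also left without a name. Sub-cluster 5, 298 cells led by RGS4, IFI27 and PLAAT3, held 338 CPM of EMX2 (282 to 401), 169 CPM of WT1, 89.7 CPM of IRX3 and 65.9 CPM of NR5A1. The granulosa-like class held 317.6, 193, 122 and 50.0 CPM of the same genes. Sub-cluster 1, 756 cells led by KISS1, COL1A1 and COL1A2, held 53.0 CPM of EMX2 (36.7 to 74.1) and 46.8 CPM of WT1. COL1A1, COL1A2, COL3A1, C7 and DCN, all among its leading genes, were markers of stroma-like cells, and RGS4 of sub-cluster 5 was a marker of granulosa-like cells. Their median depths were 816.5 and 766.5 UMIs per cell, against 1380.5 for the whole germ cell-like class. Without the unnamed sub-clusters 6 genes were 2-fold higher in granulosa-like cells, with LHX9 added to the other 5. The share over all genes was not computed for this setting. The part of depth, and of somatic cells or somatic RNA, in the values of the unnamed sub-clusters was not tested.

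**Figure D3:**
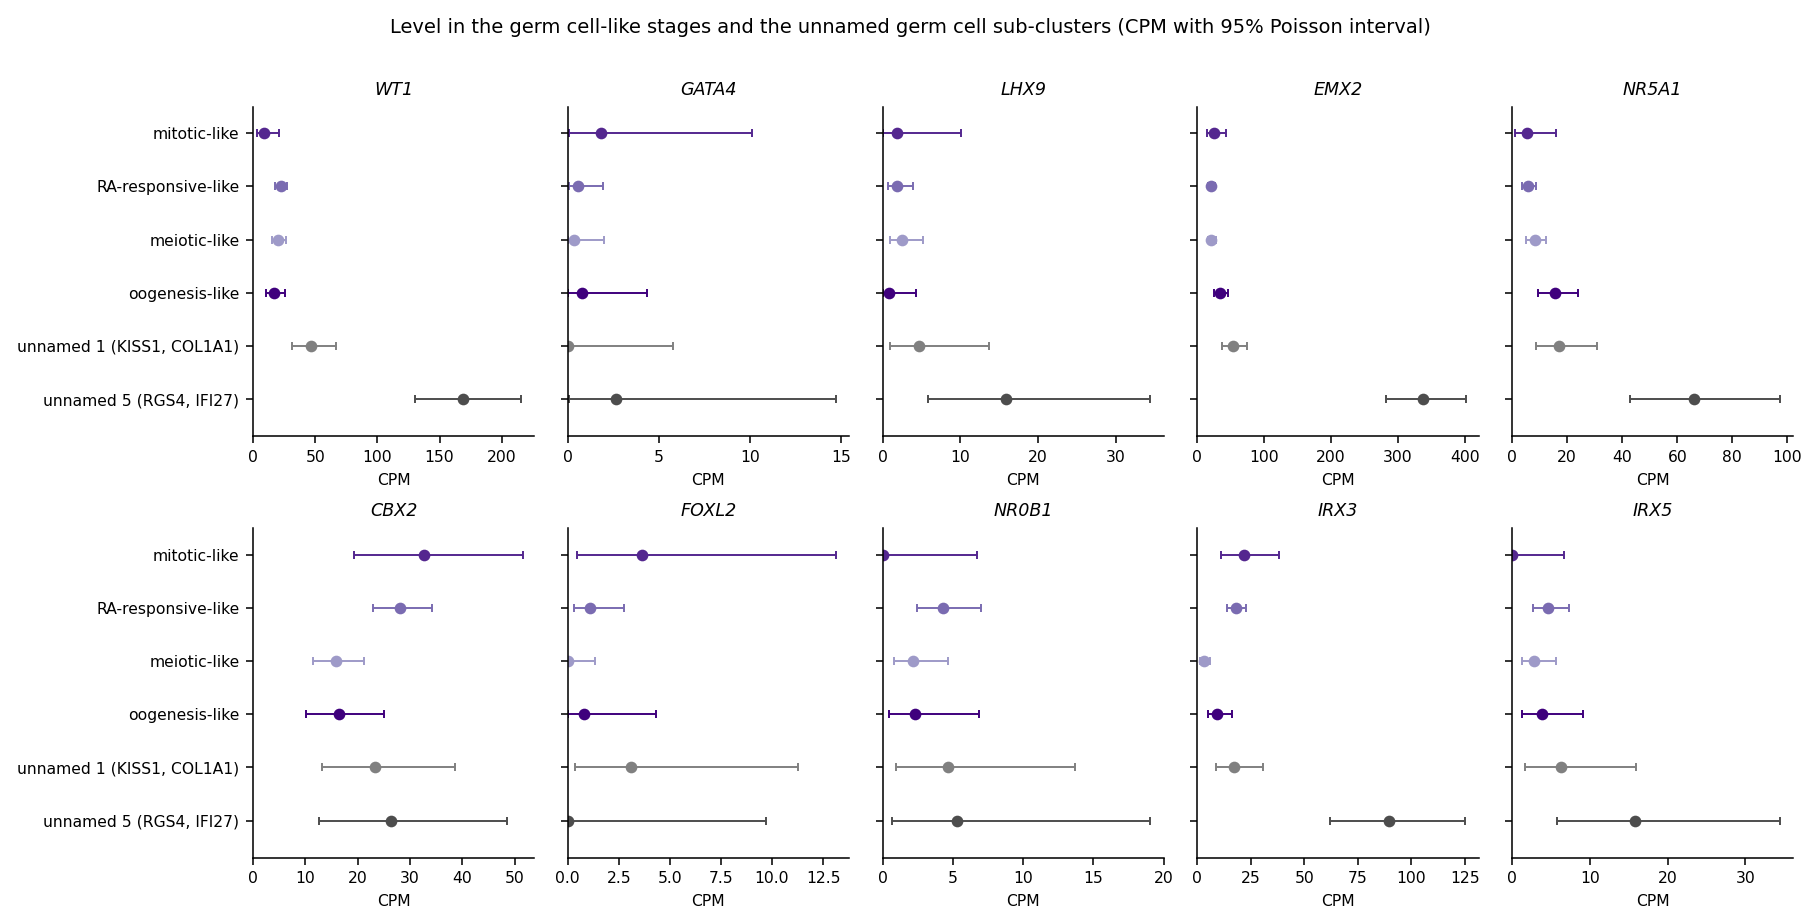
Level of each factor gene, in CPM with the exact 95% Poisson interval, in 4 germ cell-like stages and in the 2 germ cell-like sub-clusters that have no stage name. Axes differ between panels. Sub-cluster 5 stood apart for EMX2, WT1, IRX3 and NR5A1, and CBX2 was at 32.7 and 28.2 CPM in the mitotic-like and retinoic acid-responsive cells.

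The granulosa-like class was made of 5 clusters that differed in depth, mitochondrial share and barcode ending. Cluster 3 (1753 cells, led by SOST and TOX3) and the shallow cluster 5 (1229 cells, median 681 UMIs) came almost wholly from barcodes ending in 1. Cluster 6 (1010 cells, led by LYPD1 and RGS4) and cluster 7 (972 cells, led by PLXNC1, COL4A3 and INHBB) came from barcodes ending in 2. Cluster 7 had a median mitochondrial share of 48.6% of UMIs. Cluster 12 (383 cells, led by PCP4 and CRHBP) held 107 and 276 cells of the endings. Clusters 7 and 12 also had the highest levels of AMH and CYP19A1, genes of granulosa function that the clustering did not use. AMH, the anti-Müllerian hormone, was at 41.2 and 92.8 CPM there and at 4.39 to 5.21 CPM in the other clusters. CYP19A1, the aromatase, was at 68.8 and 93.4 CPM against 3.24 to 4.13 CPM.

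LHX9, EMX2, NR0B1 and IRX3 differed at least 2-fold between the highest and the lowest granulosa-like cluster, 4 of 10 genes, whereas 29.7% of all genes tested did. The share was thus not far from that of genes at large. The median log2 ratio of highest to lowest was 0.90 over the 10 genes and 0.73 over all genes tested. Within barcodes ending in 1 the count was 1 gene, IRX5, and within barcodes ending in 2 it was 2 genes, EMX2 and IRX3. The share over all genes was not computed within an ending.

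EMX2 stood at 366 CPM (353 to 379) in cluster 3 and 388 CPM (372 to 405) in cluster 6, and at 123 CPM (107 to 139) in cluster 7 and 151 CPM (134 to 170) in cluster 12, with the shallow cluster 5 between them at 232 CPM. Over the pooled cells EMX2 was thus lowest in the clusters with AMH and CYP19A1. Between cells of the same ending it was 388 CPM in cluster 6 and 132 CPM in cluster 12 for barcodes ending in 2, and 365 CPM in cluster 3 and 260 CPM in cluster 12 for barcodes ending in 1. Cluster 5, at 232 CPM, had 1200 of its 1229 cells in barcodes ending in 1, so cluster 12 did not stand lowest there. EMX2 met the 2-fold call between clusters in barcodes ending in 2 and not in barcodes ending in 1. With mitochondrial UMIs left out of the total, EMX2 was at 235 CPM in cluster 7, against 412 CPM in cluster 3 and 472 CPM in cluster 6. WT1 was at 205 and 238 CPM in clusters 3 and 6, at 122 and 129 CPM in clusters 7 and 12, and lowest at 118 CPM in cluster 5. The WT1 level of cluster 7 rose to 234 CPM without mitochondrial UMIs and was then no lower than the 231 CPM of cluster 3, with cluster 5 at 135 CPM.

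LHX9 was at 22.2 CPM (19.0 to 25.7) in cluster 3, 17.6 CPM (10.7 to 27.1) in cluster 5 and 11.3 CPM (8.69 to 14.5) in cluster 6. It was at 2.09 CPM (0.57 to 5.34) in cluster 7 and 2.15 CPM (0.58 to 5.49) in cluster 12, the last 2 resting on 4 UMIs each. IRX3 was at 184 CPM (175 to 194) in cluster 3 and 148 CPM (127 to 173) in cluster 5. It was at 73.6 CPM (66.6 to 81.1) in cluster 6, 29.2 CPM (22.1 to 37.9) in cluster 7 and 75.6 CPM (63.7 to 89.2) in cluster 12. Within cluster 12 the IRX3 level was 249.7 CPM for ending 1 and 44.3 CPM for ending 2. NR0B1 was at 18.3 and 21.1 CPM in clusters 3 and 5, at 3.59 and 3.65 CPM in clusters 6 and 7, and at 42.2 and 2.53 CPM in the endings of cluster 12.

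The remaining factors varied less over the clusters. NR5A1 lay between 28.7 CPM in cluster 7 and 59.6 CPM in cluster 12, and between 54.2 and 71.1 CPM when mitochondrial UMIs were left out. IRX5 was highest in cluster 12, at 67.1 CPM (55.8 to 79.9), with 151 and 51.9 CPM in its endings. FOXL2 lay at 3.95 to 6.97 CPM in all clusters but cluster 7, where 2 UMIs gave 1.04 CPM (0.13 to 3.77). CBX2 was at 14.0 CPM (11.1 to 17.5) in cluster 6 and between 21.2 and 26.3 CPM in the other 4. GATA4 lay between 2.87 and 5.27 CPM with overlapping intervals in all 5 clusters.

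**Figure D4:**
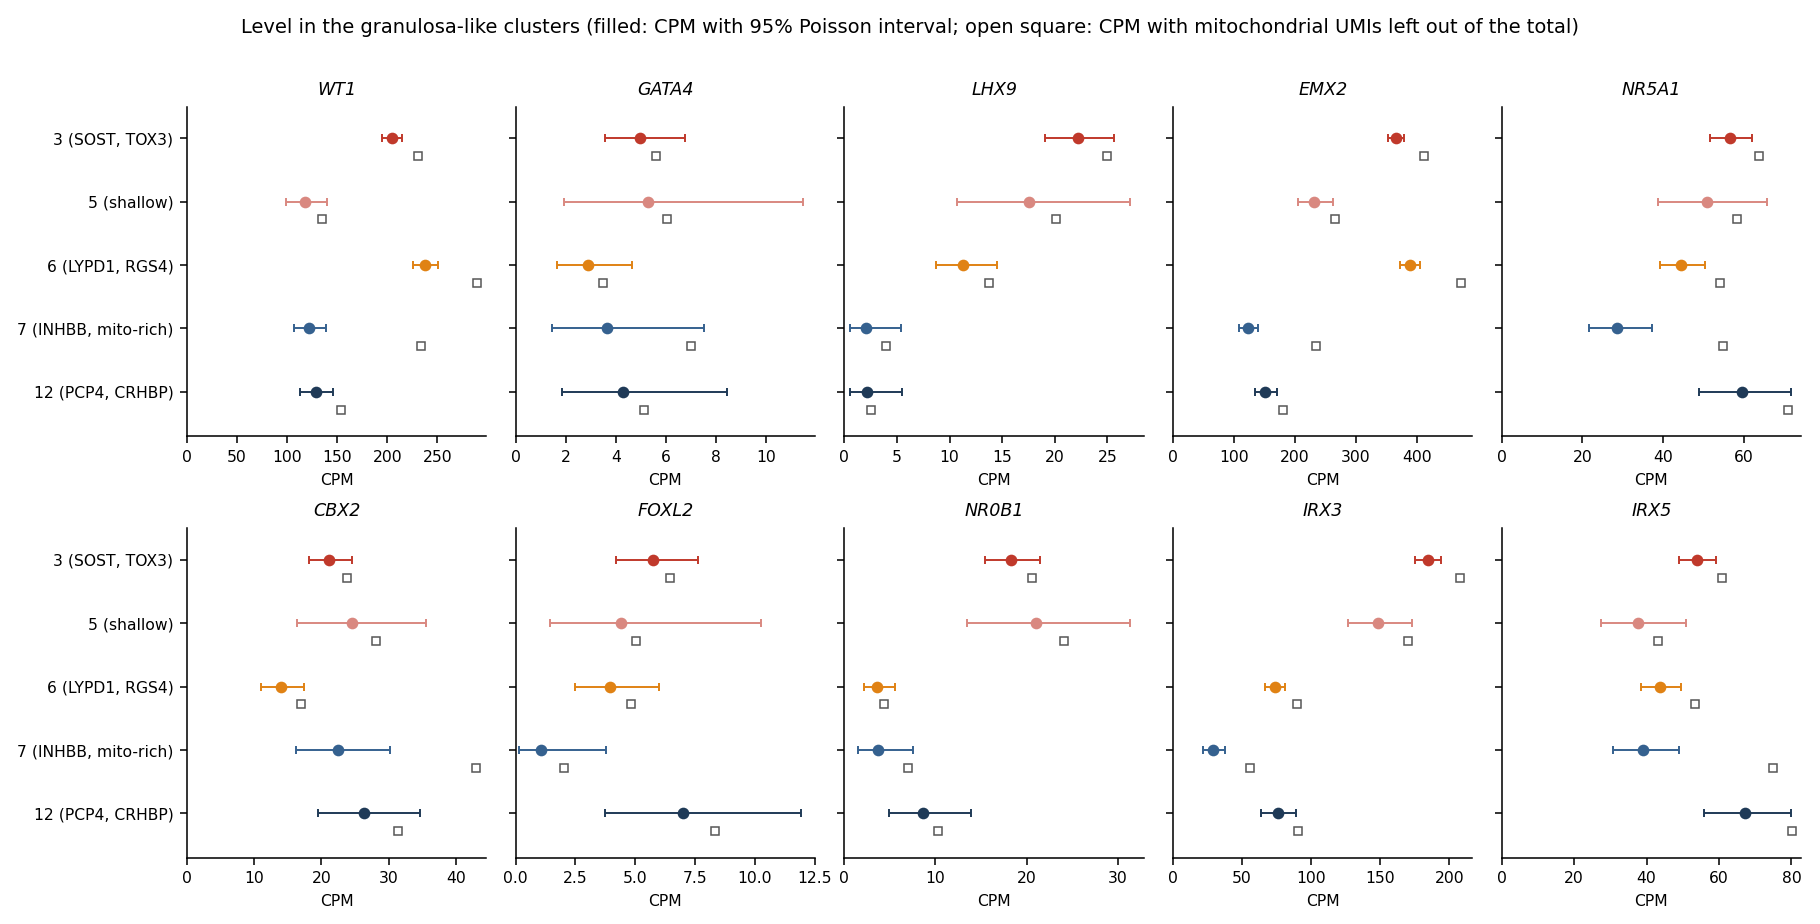
Level of each factor gene in the 5 granulosa-like clusters, named by number and leading genes. Filled points are CPM with the exact 95% Poisson interval and open squares are CPM with mitochondrial UMIs left out of the total, and axes differ between panels. EMX2 and LHX9 were lower in clusters 7 and 12 than in clusters 3 and 6 on both scales.

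Cells with more than 3000 genes lay outside the limits and gave a check in other cells of the same 2 libraries. There were 4675 of them, with a median of 16096 UMIs, and they were named by clustering all cells with no upper limit on genes. This clustering was laid down as an alternative, and the look at its deep cells alone was added after the data were seen. The deep granulosa-like cells fell into 4 clusters. One of them, 233 deep cells led by PCP4 and INHA, held 76.4 CPM of AMH and 79.8 CPM of CYP19A1, while the other 3 held 2.28 to 7.39 and 1.14 to 5.80 CPM. EMX2 was at 129 CPM (119 to 140) in that cluster and at 350.3, 383 and 319 CPM in the other 3. LHX9 was at 1.60 CPM (0.64 to 3.29) there and between 6.39 and 22.7 CPM in the others. WT1 was at 136 CPM against 172 to 317 CPM. NR5A1, in contrast, was at 66.1 CPM (58.7 to 74.2) there and between 39.5 and 60.4 CPM in the others, and IRX5 at 43.1 CPM lay within the 37.8 to 44.6 CPM of the others. The lower EMX2 and LHX9 in the cells with AMH and CYP19A1 thus recurred in cells that the first clustering had not used. All but 11 of the 233 cells had barcodes ending in 2, as did the clusters with 383 and 319 CPM of EMX2.

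Deep cells also showed in how many cells of a class a factor was detected at a set depth. These shares fall with thinning and are not the share of cells that carry a factor. Without thinning EMX2 and WT1 were found in 94.2% and 91.7% of deep granulosa-like cells, and in 30.4% and 51.6% of deep stroma-like cells. Thinned to 5000 UMIs each, 74.2% of 1563 deep granulosa-like cells (71.9 to 76.3) held EMX2 and 65.2% (62.8 to 67.6) held WT1. In 506 surface epithelium-like cells the shares were 81.6% and 79.8%. In 583 stroma-like cells they were 15.1% and 23.7%, and in 1500 germ cell-like cells 12.9% and 11.5%. IRX3 was found in 35.3% of granulosa-like, 51.8% of surface epithelium-like and 4.29% of stroma-like cells, and IRX5 in 19.8%, 20.6% and 2.57%. In barcodes ending in 1 the granulosa-like and surface epithelium-like shares were 61.3% and 58.2% for IRX3 and 81.7% and 82.0% for EMX2. In barcodes ending in 2 they were 25.6% and 46.1% for IRX3 and 71.3% and 81.3% for EMX2. WT1 was found in 41.2% of 204 endothelial-like cells (34.4 to 48.3), beside 7.35% (4.17 to 11.8) for EMX2. FOXL2 was seen in 2.05% of deep granulosa-like cells (1.40 to 2.88) and in none of 506 surface epithelium-like cells. Without thinning, 5.76% of these granulosa-like cells and 2 of these surface epithelium-like cells (0.40%) held a UMI of FOXL2. The deep erythroid-like cells numbered 2, so no background of free RNA could be set at this depth.

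At 5000 UMIs a granulosa-like cell held UMIs of 2.42 of the 10 genes on average, and a surface epithelium-like cell of 2.88. The mean was 0.98 in stroma-like, 0.97 in endothelial-like and 0.54 in germ cell-like cells. At least 3 of the genes were seen together in 46.6% of granulosa-like and 61.7% of surface epithelium-like cells, against 7.55% of stroma-like and 4.80% of germ cell-like cells. In the endings the granulosa-like share was 64.3% and 40.0%, and the surface epithelium-like share 65.3% and 58.4%. The mean number of genes was 2.97 and 2.22 in granulosa-like and 2.98 and 2.79 in surface epithelium-like cells of the endings. The 2 classes were thus near even in barcodes ending in 1, and their difference rested on barcodes ending in 2. EMX2 and WT1 were often seen in the same deep germ cell-like cells. EMX2 was seen in 50.6% of 172 deep germ cell-like cells with WT1 and in 8.06% of 1328 without it, whereas in granulosa-like cells the shares were 77.7% and 67.5%. CBX2 showed no such pattern with WT1, at 11.6% of germ cell-like cells with WT1 and 11.5% of those without it.

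**Figure D5:**
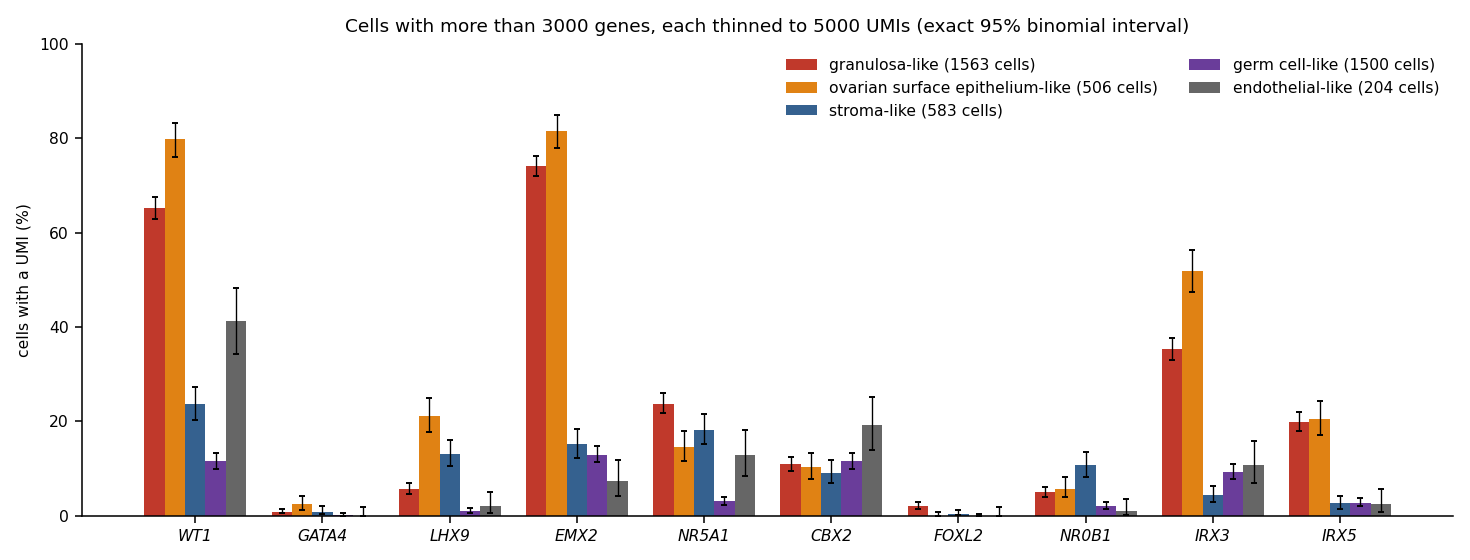
Share of cells with at least 1 UMI of each factor gene among cells with more than 3000 genes, each thinned to 5000 UMIs, as bars that start at 0% with exact 95% binomial intervals. Bars are 5 cell classes, with the number of cells in the key. EMX2 and WT1 were seen in 74.2% and 65.2% of granulosa-like cells, and WT1 in 41.2% of endothelial-like cells.

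Other genes of the same pathways were read from short lists in the comparison of granulosa-like with stroma-like cells. Of all genes tested, 4.32% were called higher and 3.84% lower there, beside which the counts of every list are to be read. Of 12 early gonad factors tested, 2 were at least 2-fold higher and 2 lower, with a median log2 ratio of -0.0033 beside 0.06 over all genes. LHX2, a LIM homeobox gene related to LHX9, was at 208 CPM in granulosa-like, 387 CPM in surface epithelium-like and 10.4 CPM in stroma-like cells. LHX2 was also lower in the granulosa-like clusters 7 and 12, at 39.1 and 25.2 CPM against 186 to 285 CPM in the others. IGF1R, the receptor of insulin-like growth factor 1, was the other gene that was higher, at 24.7 against 5.93 CPM. TCF21 and OSR1, mesenchymal factors, were lower at 20.5 and 17.9 CPM against 473 and 59.7 CPM.

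Of 7 genes of the ovarian side tested, 4 were higher and 1 lower, with a median log2 ratio of 1.04. The 4 were ESR2, NR5A2, RSPO1 and LGR4. RSPO1, a secreted activator of WNT signalling, was at 32.2 against 4.00 CPM and its receptor gene LGR4 at 83.7 against 27.6 CPM. ESR2, an oestrogen receptor, was at 20.7 against 2.13 CPM. NR5A2, the close relative of NR5A1, was at 13.4 against 1.40 CPM and within the granulosa-like class held 55.8 and 62.2 CPM in clusters 7 and 12 and at most 2.51 CPM in the other 3. Endothelial-like cells held 36.8 CPM of NR5A2. Surface epithelium-like cells held more RSPO1 and ESR2 than granulosa-like cells, at 142 and 42.6 CPM. They held less LGR4 and NR5A2, at 41.6 and 1.43 CPM. WNT4, a ligand of the ovarian pathway, was the gene that was lower, at 1.62 against 45.9 CPM.

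On the testis side 2 of 5 genes tested were higher, with a median log2 ratio of 0.66. PTGDS, a prostaglandin synthase, was at 703 CPM in granulosa-like and 70.0 CPM in stroma-like cells, and FGF9, a growth factor, at 27.9 and 7.60 CPM. Both were higher still in surface epithelium-like cells, at 3566 CPM of PTGDS and 62.7 CPM of FGF9. SOX9, the Sertoli cell factor, was not tested, with 0.27 CPM in granulosa-like cells. Of 9 CBX and PRC1 genes, the relatives and partners of CBX2, none differed 2-fold and the median was -0.05. None of 5 paralogs of the Iroquois, GATA and EMX families that could be tested differed, and IRX1, IRX4 and IRX6 had too few UMIs to be tested.

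Among 11 genes of AMH, inhibin and steroid synthesis, 5 were higher and 1 lower, with a median log2 ratio of 0.98. AMH was at 17.5 against 2.27 CPM, INHA, an inhibin subunit, at 36.1 against 8.47 CPM, FST, which encodes follistatin, at 105 against 15.3 CPM, and FSHR, the receptor of follicle-stimulating hormone, at 14.0 against 1.00 CPM. SCARB1, a lipoprotein receptor, was at 76.2 against 17.2 CPM. CYP17A1, a steroidogenic enzyme of the theca, was the lower one, at 1.19 against 18.1 CPM. Of 2 genes tested from a list of genes tied to WT1, PODXL, which encodes podocalyxin, was at 124 against 7.47 CPM and IGFBP5, a binding protein of insulin-like growth factors, at 659 against 2788 CPM. In surface epithelium-like cells PODXL was at 394 CPM and IGFBP5 at 748 CPM.

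The genes whose pattern came nearest to each factor were read over 14 groups, namely the 5 granulosa-like clusters, 5 other classes and 4 germ cell stages. Likeness was Pearson's r of log2(CPM + 10) among 12178 genes. The groups share libraries and differ in depth, so r is a description. The nearest genes were LONRF2 (r = 0.97), ETNK2 and USH1G for EMX2, and PARP8 (r = 0.97), HPCAL1 and PDE7B for WT1. IRX3 was nearest to ETNK2 (r = 0.93), SERPINB9 and CCDC69, and IRX5 to CCDC69 (r = 0.97), AFF2 and AMHR2, the last of which was used to name granulosa-like cells. NR5A1 was nearest to BEX3 (r = 0.97), PLAAT3 and DOK5. LHX9 and NR0B1 both had RHOU among their nearest genes (r = 0.93 and 0.90), with ASIC1 for LHX9 and C1QTNF7 for NR0B1, and a gene with no symbol was first for each. CBX2 had DAPK2 (r = 0.90), ZNF549 and ETHE1. For FOXL2 and GATA4 the level spanned 1.70-fold and 1.53-fold over the 14 groups with 10 CPM added, and ELK1 appeared for both (r = 0.90 and 0.89).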

How the data were processed

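The authors deposited raw UMI counts per gene and cell, made with Cell Ranger 3.0.2 on Macaca_fascicularis_5.0 and imported into Seurat, for both libraries in 1 table. Values were used as deposited. Cells with 200 to 3000 genes were clustered with Seurat 5.3.0 (R 4.3.3; 2000 variable genes without the genes reported on, 18 components, 20 neighbours, resolution 0.6). A class name needed 3 markers, each at 1.5 times the level of all other cells and in 5% of cells. Germ cells were then re-clustered at resolution 0.7 and named by stage. UMIs were summed per class as CPM, and shares were computed after thinning each cell to 1000 UMIs, which left out shallower cells, in Python 3.11.15 with scipy 1.17.1. Intervals are exact at 95%, with a limit of 3 counts at 0. Scrublet (scanpy 1.11.5) called 2 of 8716 and 1 of 7576 cells and so did not work, and the 8% with the highest scores were left out as an alternative. The study's own cluster labels were not used here, so class names may differ from it. The genes and lists were chosen with earlier results of these data known. All 10 genes are reported, with listed genes that differ 2-fold and the 3 nearest patterns. The calls and intervals were run on simulated Poisson counts. These held no differences between cells or libraries, and no changed gene was as low as FOXL2 or GATA4. The run therefore checks the computation and not the error of the calls in these cells. Reference sequences were not used here.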

Additional observations from a re-analysis of the deposited data

Results flagged for a closer look

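Cells with more than 3000 genes were outside the comparisons between classes and were looked at because the factors lie above the limit that a count of 0 allows there. Over all 4675 such cells EMX2 was at 166 CPM, WT1 at 142 CPM, IRX3 at 59.8 CPM and NR5A1 at 29.3 CPM. CBX2 was at 24.7 CPM, IRX5 at 21.6 CPM, LHX9 at 12.5 CPM and NR0B1 at 8.40 CPM. FOXL2 was at 1.34 CPM and GATA4 at 1.15 CPM, from 128 and 110 UMIs. These cells hold 1563 granulosa-like and 1500 germ cell-like cells, so the values are means over a mixture of classes.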

How the results depend on the processing

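WT1, EMX2 and IRX3 were 2-fold higher in granulosa-like than in stroma-like and germ cell-like cells under every alternative run. The share of all genes called was computed for the main settings only, so the counts under alternatives have no such share beside them. The count of factors higher than in stroma-like cells was 5 with 1 CPM added, 5 in barcodes ending in 1 and 3 with 50 CPM added, where IRX5 lost its call, against 4. The count higher than in germ cell-like cells was 9 with 1 CPM added, 7 in barcodes ending in 1 and 3 with 50 CPM added, against 5. It was 6 without mitochondrial UMIs, without the shallow and mitochondria-rich clusters, or without the unnamed germ cell sub-clusters. The count higher in surface epithelium-like than in granulosa-like cells was 1, LHX9, with no upper limit on genes, with 1 CPM added and in barcodes ending in 2, against 0. With 1 CPM added FOXL2 was called lower there. The count that differed between granulosa-like clusters was 2 with at most 10% mitochondrial UMIs, 7 with 1 CPM added, 2 with 50 CPM added, 1 in barcodes ending in 1 and 2 in barcodes ending in 2, against 4. It was 6 with single-cell means. It was 5 with no upper limit on genes, with 30 components, without the highest doublet scores and without mitochondrial UMIs. With CPM added, the added amount itself sets the count. For the other changes the cause was not tested. NR0B1 lost its call as lower than in stroma-like cells with no upper limit on genes, at most 10% mitochondrial UMIs, single-cell means, 50 CPM added, mitochondrial UMIs left out, and in barcodes ending in 1. No value called 2-fold turned its direction. With at most 10% mitochondrial UMIs no surface epithelium-like cluster could be named. Leaving out mitochondrial UMIs, the shallow and mitochondria-rich clusters or the unnamed germ cell sub-clusters was added after the data were seen. No paired analysis was possible because the cells could not be tied to the fetuses. FOXL2 and GATA4 rest on 112 and 125 UMIs.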
